A study of Mus musculus with 12 samples.

Results

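The tetraspanins examined here are 10 genes, Cd81, Cd9, Cd151, Cd63, Tspan3, Tspan4, Tspan14, Cd37, Cd53 and Cd82, out of 31 mouse genes of the family listed for this work and 56941 genes in the count tables. They were named by symbol and found by matching the Ensembl identifiers of the tables to the mouse annotation, and all 10 were present and passed the filter on low counts. The rule names genes and holds no threshold, but the list was selected on earlier results of these libraries, in which the level of Cd81 differed between genotypes in both states. That difference is therefore given below as a description without a p-value. Counts of calls between genotypes that include Cd81 are likewise no test of it. Bone marrow-derived macrophages from mice lacking miR-210 (KO) and from wild-type mice (WT), all C57BL/6J, were compared by RNA sequencing to ask how the microRNA bears on polarization towards the pro-reparative M2 phenotype. Monocytes were taken from bone marrow by negative magnetic selection and grown for 7 days in high-glucose DMEM with 20% fetal bovine serum and 30% L929-conditioned medium, a source of M-CSF. The 4 groups were WT M0 and KO M0, which received no IL-4, and WT M2 and KO M2, which were given 20 ng/mL IL-4 for 72 hours, with 3 libraries in each. Per the study's methods, the wells without IL-4 were otherwise kept in the same way. The KO allele came from floxed miR-210 mice crossed with a Gata-1 Cre line, and both genotypes were bred from heterozygous parents. The age and sex of the mice, and whether each library came from its own animal, are not given in the sources used here, so the p-values measure the spread between these libraries, which may be technical.

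Tetraspanins are small proteins that cross the plasma membrane several times and gather other membrane proteins around them, among them integrins, immunoglobulin superfamily proteins, proteases and one another. Some act mainly at the cell surface, such as CD9, CD81 and CD151, and others mainly on endosomes and lysosomes, such as CD63, which is also a common marker of exosomes. In macrophages CD9 and CD81 are known for restraining the fusion of cells into giant cells, and CD37 and CD53 are found largely on leukocytes.

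The microRNA removed in the KO mice, miR-210-3p, is shown first because matches to its seed were searched for in the transcripts. The sequence is from RefSeq (GRCm38.p6, chr7:141221407-141221428, - strand), with the seed, bases 2 to 8, in capitals.
mmu-miR-210-3p: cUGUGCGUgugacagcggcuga
The letters that pair with this seed, ACGCACA, were present in 0 of the 30 tetraspanin genes whose canonical transcript has an annotated 3′ untranslated region, 9 of them members. The same letters occurred in 722 of 20705 genes with such a region, or 3.49%. Tspan4 had no annotated region of this kind and was not searched. Shorter matches, other parts of the transcripts and other isoforms were not searched either, so pairing with a member is not excluded.

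Promoters of 4 members are shown because they represent the different behaviours described below: Cd9 and Cd81 were higher in M2 than in M0 in WT, Cd53 was lower, and Tspan3 moved little. Each runs from 250 bases before to 50 bases after the RefSeq start (GRCm38.p6, 300 bases, written along the gene's strand). Capitals mark matches to the STAT6-type motif TTCNNNNGAA, to the shorter STAT motif TTCNNNGAA or to the GC box GGGCGG, each searched on both strands.
Cd9 (chr6:125494711-125495010, - strand): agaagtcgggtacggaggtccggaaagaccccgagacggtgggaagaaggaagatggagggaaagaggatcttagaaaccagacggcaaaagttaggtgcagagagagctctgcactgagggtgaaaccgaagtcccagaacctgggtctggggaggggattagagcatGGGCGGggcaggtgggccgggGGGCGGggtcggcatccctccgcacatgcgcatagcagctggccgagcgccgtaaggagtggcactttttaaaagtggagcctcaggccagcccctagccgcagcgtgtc
Cd81 (chr7:143052500-143052799, + strand): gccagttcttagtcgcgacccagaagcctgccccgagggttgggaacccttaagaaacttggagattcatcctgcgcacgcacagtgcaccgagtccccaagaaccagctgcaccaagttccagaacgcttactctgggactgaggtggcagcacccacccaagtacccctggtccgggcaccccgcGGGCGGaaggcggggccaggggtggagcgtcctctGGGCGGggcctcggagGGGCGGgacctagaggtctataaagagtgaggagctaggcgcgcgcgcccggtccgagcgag
Cd53 (chr3:106790100-106790399, - strand): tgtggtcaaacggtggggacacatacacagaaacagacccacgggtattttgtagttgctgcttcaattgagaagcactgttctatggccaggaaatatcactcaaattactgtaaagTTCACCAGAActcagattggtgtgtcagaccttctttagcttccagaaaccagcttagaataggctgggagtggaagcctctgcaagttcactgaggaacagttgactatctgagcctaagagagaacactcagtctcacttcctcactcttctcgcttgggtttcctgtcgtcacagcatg
Tspan3 (chr9:56161021-56161320, - strand): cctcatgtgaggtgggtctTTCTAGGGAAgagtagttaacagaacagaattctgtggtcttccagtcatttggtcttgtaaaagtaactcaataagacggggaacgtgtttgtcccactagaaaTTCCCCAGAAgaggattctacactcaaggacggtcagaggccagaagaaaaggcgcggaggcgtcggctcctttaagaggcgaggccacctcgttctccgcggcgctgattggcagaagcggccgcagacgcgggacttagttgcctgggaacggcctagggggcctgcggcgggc
TTCNNNNGAA was found in the promoters of 2 of the 10 members, once in Cd53 and 2 times in Tspan3, that is in 2 of the 16 promoters listed for the members, against 6.95% of all 32851 mouse promoters in the table. TTCNNNGAA was found in 1 of the 16, a promoter of Cd82, against 8.30% of all promoters. The GC box stood in 8 of the 16, which belong to 7 members, Cd81 with 3 copies and Cd9 with 2 among them, and in 35.7% of all promoters. The matches are letters in these windows and do not show binding.

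On GRCm39, 4 members lie on chromosome 7, which also carries Mir210 (chr7:140801297-140801406, - strand). Cd151 (chr7:141047256-141052572, + strand) and Tspan4 (chr7:141055138-141073340, + strand) lie side by side, 246 kb and 254 kb from it. Cd81 (chr7:142606314-142621672, + strand) lies 1805 kb away, and Tspan32, another tetraspanin, lies 1757 kb away. Cd37 (chr7:44882849-44888546, - strand) is on the same chromosome but 95913 kb away. The other members lie on chromosomes 6 (Cd9), 10 (Cd63), 3 (Cd53), 2 (Cd82), 9 (Tspan3) and 14 (Tspan14).

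Each library held between 7930525 and 10167695 counts assigned to genes. Mir210 was detected in all 6 WT libraries, with 1 to 5 counts each, and had 0 counts in all 6 KO libraries, a check of the labels that rests on few counts. All 7 macrophage markers were expressed, with a summed level of 66038 to 89287 normalized counts. Markers of T cells summed to at most 2.86, with Cd3e and Cd3g at 0, and those of B cells to at most 2.30, with Ms4a1 at 0. Batch labels and groups coincide, so a batch cannot be told apart from a group in any comparison below. In bulk samples, more or fewer cells with a transcript and more or less RNA per cell cannot be told apart either.

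Levels are given as normalized counts, that is counts scaled by TMM factors to the mean library size over all 12 libraries, and genes are ranked only after division by the length of their annotated exons in kb. On that scale Cd53, a tetraspanin of leukocytes, was the most abundant member in every group, at 3994 ± 419 per kb in WT M0 and 3208 ± 13.7 per kb in WT M2 (SD, n = 3). Cd81, a surface tetraspanin found on many cell types, was second in every group, at 490.3 ± 42.4 per kb in WT M0 and 796 ± 41.8 per kb in KO M2. Cd82 was the lowest in every group, at 41.7 ± 4.86 per kb in WT M0 and 31.5 ± 4.12 per kb in KO M2. Cd9 had rank 8 of the members in both M0 groups and rank 3 or 4 in M2, and Cd151 moved from rank 6 to rank 4 or 3. The levels of Cd9 and Cd151 overlapped in both M2 groups, at 392 ± 6.40 and 386 ± 12.9 per kb in WT M2. Cd37 went from rank 3 to rank 5, and Tspan4 from rank 4 to rank 7 in WT M2 and rank 6 in KO M2. Neighbours in the order that overlapped between libraries included Tspan3 and Cd151 in both M0 groups and Tspan3 and Tspan4 in both M2 groups. When lengths of the canonical transcripts were used instead, between 4 and 8 of the 10 members kept their place in a group.

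**Figure D1:**
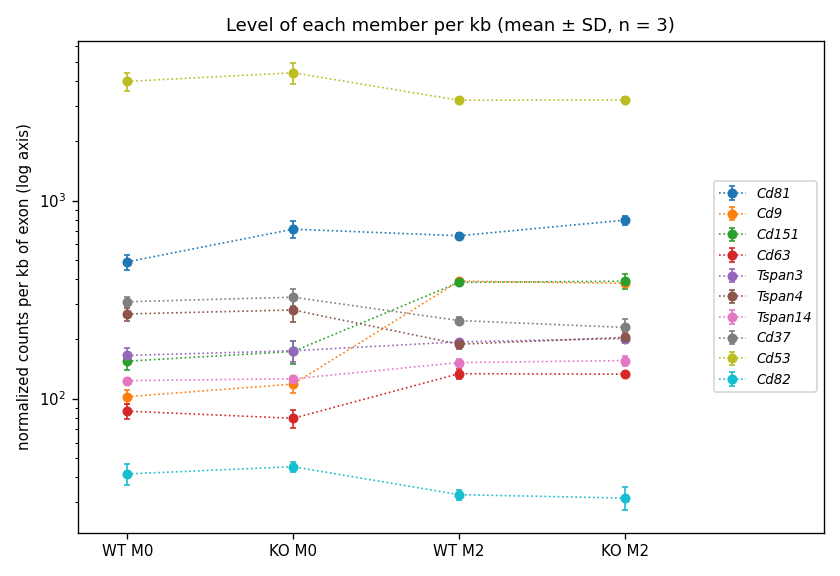
Mean level of each of the 10 members in normalized counts per kb of annotated exon (log axis, bars ± SD, n = 3 libraries) in the 4 groups. Dotted lines join the means of one gene. Cd53 is highest and Cd82 lowest in every group, and Cd9 and Cd151 climb past Cd37 and Tspan4 in the M2 groups.

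The ratio of partner tetraspanins within a library changed as well. Cd9 per kb was 0.18 to 0.246 times Cd81 per kb in WT M0 and 0.565 to 0.604 times in WT M2. In KO libraries this ratio was 0.163 to 0.167 in M0 and 0.455 to 0.497 in M2. Every M2 library thus had more Cd9 relative to Cd81 than any M0 library of its genotype, with Cd81 remaining the more abundant transcript per kb. Cd53 per kb was 6.85 to 9.73 times Cd81 per kb in WT M0 and 4.63 to 5.01 times in WT M2. In KO libraries this ratio was 5.89 to 6.46 in M0 and 3.98 to 4.09 in M2.

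The comparison of M2 with M0 asks how IL-4 changed the members within each genotype. In WT, 9 of 10 members passed the test, 5 higher (Cd9, Cd151, Cd63, Cd81, Tspan14) and 4 lower (Tspan4, Cd82, Cd37, Cd53). Called genes had an adjusted p below 0.05 together with a change of more than 1.2-fold in either direction, which held for 45.4% of the 11134 protein-coding genes compared (23.6% higher and 21.8% lower). In KO, 8 of 10 members passed, 4 higher and 4 lower, against 36.6% of 11116 genes, 18.5% higher and 18.1% lower. The median log2 fold change of the 10 members was 0.27 in WT and 0.18 in KO, and that of the 11134 and 11116 protein-coding genes compared was 0.00528 and -0.0129. The libraries of M0 and M2 did not overlap for all 10 members in WT and for 8 in KO, against 60.8% and 50.4% of all genes compared. The members were chosen with earlier results of these libraries known, so these counts, medians and shares are a description. The lowest member, Cd82, averaged 166 normalized counts over all libraries, while the genes compared needed only an average over 10. Marker sums moved with IL-4 too. The sum of the M2 macrophage markers was 14189 to 18896 in M0 and 58258 to 61599 in M2 in WT. In KO that sum was 13955 to 16616 in M0 and 60629 to 63606 in M2. In WT the sum of the 7 macrophage markers was 81205 to 83138 in M0 and 66038 to 68055 in M2, and in KO it was 78337 to 89287 and 68078 to 72601. Most of it was Lyz2, at 46227 to 48089 in WT M0 and 35839 to 36680 in WT M2. In WT, Adgre1, Mertk and Fcgr1 were lower in M2 too, Itgam and Cd68 were higher, and Csf1r overlapped. The dendritic cell sum was 2.80 to 5.51 and 105 to 162 in WT and 4.51 to 8.61 and 91.8 to 119 in KO, nearly all of it Zbtb46 in M2, with Flt3 at 0 in every M2 library. The endothelial sum, nearly all Kdr, was 263 to 346 and 78.2 to 99.7 in WT and 201 to 218 and 78.7 to 117 in KO. Platelet markers also differed and are given with Cd9, the fibroblast sum was lower in M2 and at most 17.1 in any library, and the neutrophil sum was higher in M2 in WT, at 22.4 to 40.04 against 5.51 to 21.9, with Ly6g at 0. The part of these cell types in the changes of the members was not tested.

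**Figure D2:**
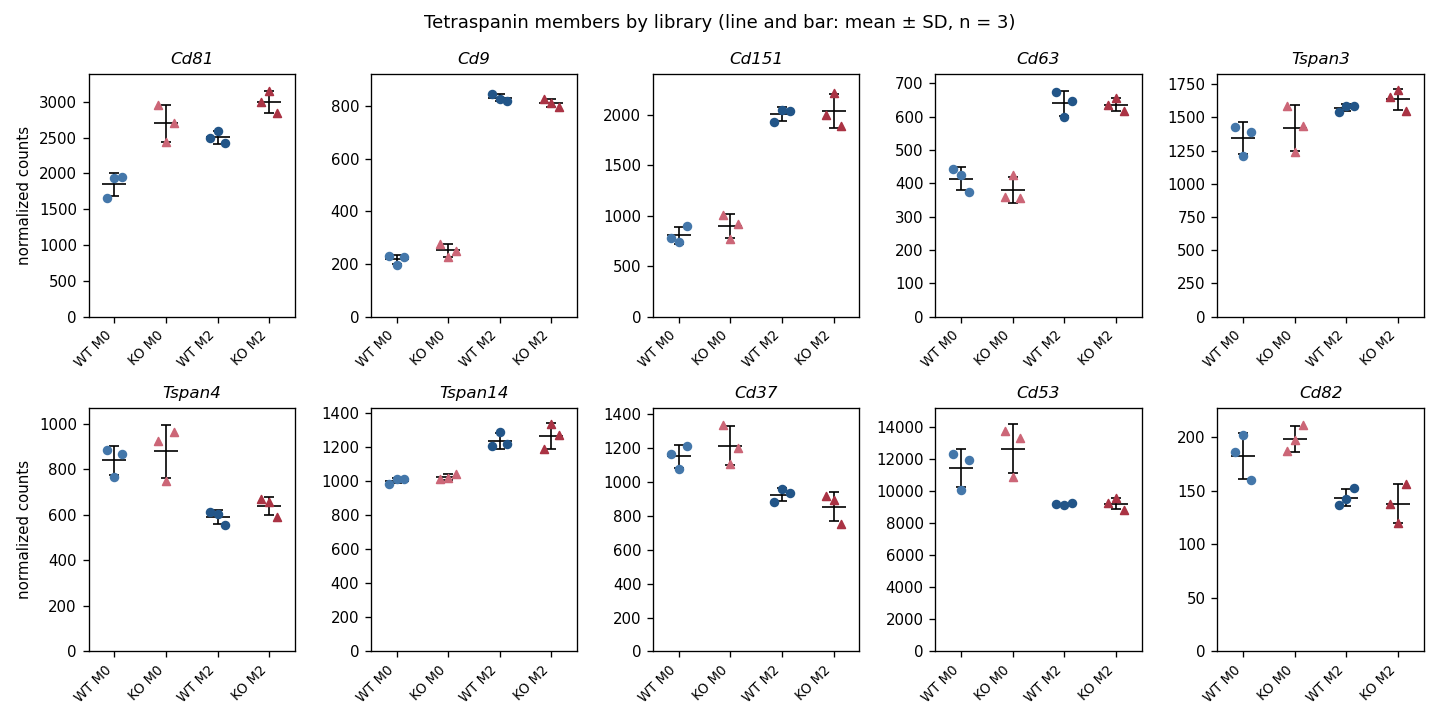
Normalized counts of each member in every library (circles WT, triangles KO), with the mean and SD of 3 libraries as a line and bar. Cd9 and Cd151 show the widest gap between M0 and M2, Cd37, Cd53, Cd82 and Tspan4 sit lower in M2, and for Cd81 all KO libraries lie above the WT libraries of the same state.

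Among the surface tetraspanins, Cd9 had the largest rise. It stood at 231, 196 and 225 normalized counts in the WT M0 libraries and 848, 827 and 822 in WT M2. The KO libraries held 278, 227 and 249.6 in M0 and 829, 811 and 796 in M2. The M2 libraries of both genotypes thus lay within a narrow band, far above every M0 library. The fold change was 3.85 in WT (log2 1.94, SE 0.08, edgeR adjusted p = 3.99e-10) and 3.23 in KO (log2 1.69, SE 0.09, edgeR adjusted p = 2.22e-08). CD9 is also abundant on platelets, and the summed megakaryocyte and platelet markers were 33.98 to 52.3 in WT M0 and 95.3 to 102 in WT M2. In KO this sum was 60.3 to 88.3 in M0 and 88.7 to 91.8 in M2. Of these 4 markers Gp1bb was at 0 in every library and Gp9 was at 0 or near it, and Ppbp made up most of the sum. Their part in the rise of Cd9 was not tested.

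Cd151, which binds laminin-receptor integrins, followed. Its WT libraries held 781, 736 and 894 normalized counts in M0 and 1929, 2051 and 2039.6 in M2. In KO the values were 1010.4, 772 and 916 in M0 and 1999, 2218 and 1886 in M2. There was no overlap between states in either genotype. Its fold change was 2.51 in WT (log2 1.33, SE 0.08, edgeR adjusted p = 8.40e-09) and 2.27 in KO (log2 1.18, SE 0.10, edgeR adjusted p = 1.56e-06). Tspan4, its neighbour on the same strand, moved the other way, as given below.

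Cd81 rose with IL-4 in WT, from 1663, 1932 and 1947 normalized counts in M0 to 2488, 2597 and 2420.5 in M2. This was a fold change of 1.36 (log2 0.44, SE 0.07, edgeR adjusted p = 2.02e-04) with no overlap. In KO it stood at 2957, 2435 and 2709.8 in M0 and 3002, 3156 and 2842 in M2. There the M0 library with the most Cd81 lay above the M2 library with the least, and the fold change was 1.11 (log2 0.15, SE 0.09, edgeR adjusted p = 0.199), which did not pass. The same libraries gave the genotype difference known when the list was chosen, so these p-values are not independent of that choice.

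Cd63, the member of late endosomes and exosomes, rose in both genotypes. WT libraries held 442, 424 and 375 normalized counts in M0 and 674, 599 and 645 in M2, and KO libraries 359.6, 425 and 357 in M0 and 635, 655 and 616 in M2. Every M2 library was above every M0 library. The fold change was 1.55 in WT (log2 0.64, SE 0.08, edgeR adjusted p = 2.86e-05) and 1.67 in KO (log2 0.74, SE 0.09, edgeR adjusted p = 3.94e-05). Its level is uncertain, because 29.0% of the 50-base windows of its canonical transcript also occur in other genes, chiefly the noncoding gene Gm58347 and the pseudogene Cd63-ps. Cd63-ps had 111 counts over all 12 libraries, and Gm58347 is not among the genes of the tables. For the other members at most 1.15% of such windows were shared.

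Tspan14, one of the group that carries the protease ADAM10 to the cell surface, rose by a smaller amount. The values in WT were 985, 1010.3 and 1011 normalized counts in M0 and 1205, 1289 and 1216 in M2, and in KO they were 1010.4, 1021 and 1041 in M0 and 1186, 1337 and 1273 in M2. The M0 libraries of both genotypes were tightly grouped and all lay below the M2 libraries. The fold change was 1.24 in WT (edgeR adjusted p = 9.73e-04) and 1.24 in KO (edgeR adjusted p = 0.0071), with log2 values of 0.31 and 0.31 and SE of 0.06 and 0.08. Without library 2 of KO M2 the KO difference did not pass, at an edgeR adjusted p of 0.0571. Tspan3 stood at 1345 ± 119 normalized counts in WT M0 and 1574 ± 25.7 in WT M2 (SD, n = 3). Its log2 fold change of 0.23 in WT (SE 0.07, edgeR adjusted p = 0.0147) lay under the fold limit, and that of 0.21 in KO (SE 0.09, edgeR adjusted p = 0.109) did not pass. Without library 1 of WT M0 the WT value was called, at 0.28 (edgeR adjusted p = 0.0089), and without library 1 of KO M0 the KO value was, at 0.29 (edgeR adjusted p = 0.0234).

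The leukocyte tetraspanins Cd37 and Cd53 fell with IL-4 in both genotypes, as did Cd82 and Tspan4. Tspan4 is known for its part in forming migrasomes on the trailing fibres of moving cells. Cd53 went from 12311, 10077 and 11964 normalized counts in WT M0 to 9191, 9161 and 9238 in WT M2. In KO it went from 13747, 10922 and 13323 to 9275, 9566 and 8845. The M2 libraries differed little among themselves, while the M0 libraries were higher and more spread. The log2 fold change of Cd53 was -0.31 in WT (SE 0.08, edgeR adjusted p = 0.0045) and -0.46 in KO (SE 0.09, edgeR adjusted p = 0.0016). Without library 1 of WT M0 the WT value was -0.26, just inside the fold limit of 0.263 on the log2 scale.

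Cd37, which also marks mature B cells, held 1166, 1079 and 1212 normalized counts in M0 and 883, 960.0 and 934 in M2 in WT. Its KO libraries held 1337, 1106 and 1201 in M0 and 918, 893 and 755 in M2. The groups did not overlap in either genotype. B cell markers summed to at most 2.30 in any library, with Cd79a at up to 2.24 and Ms4a1 at 0. Their part in the fall of Cd37 was not tested. The log2 fold change was -0.31 in WT (SE 0.07, edgeR adjusted p = 0.0019) and -0.50 in KO (SE 0.10, edgeR adjusted p = 0.0013).

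Cd82, the least abundant member per kb, held 186, 202 and 159.8 normalized counts in M0 and 137, 142 and 152 in M2 in WT. In KO the values were 187, 197 and 212 in M0 and 137, 120.2 and 156 in M2. The closest WT libraries of the 2 states were only a few counts apart. The log2 fold change was -0.34 in WT (SE 0.12, edgeR adjusted p = 0.0267) and -0.53 in KO (SE 0.13, edgeR adjusted p = 0.0053). The WT difference did not pass without library 1 or 2 of WT M0 or library 1 or 2 of WT M2, with edgeR adjusted p-values of 0.0605, 0.0816, 0.0955 and 0.0747.

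Tspan4 held 883, 765 and 868 normalized counts in M0 and 611, 604 and 554 in M2 in WT. In KO it held 925, 747 and 964 in M0 and 668, 655 and 591 in M2. All M2 libraries lay below all M0 libraries of their genotype. The log2 fold change was -0.50 in WT (SE 0.08, edgeR adjusted p = 1.09e-04) and -0.46 in KO (SE 0.10, edgeR adjusted p = 0.0036).

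**Figure D3:**
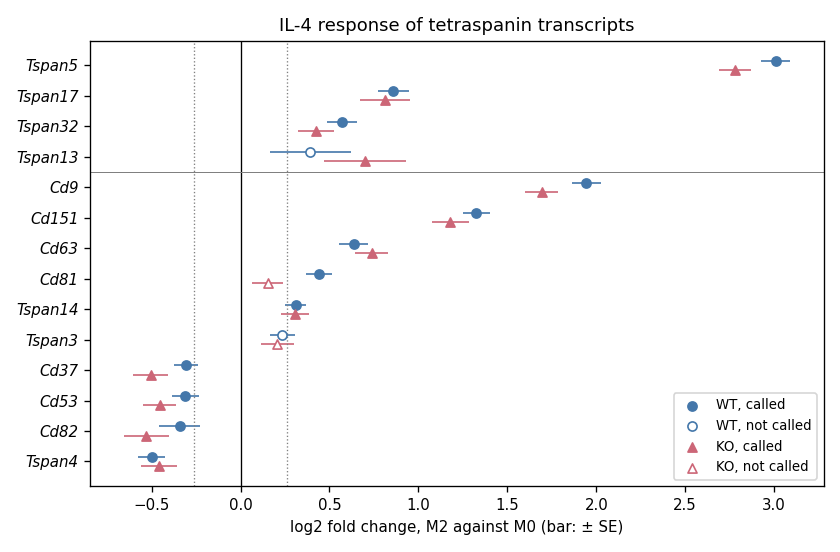
Log2 fold change of M2 against M0 with its SE in WT (circles) and KO (triangles) for the 10 members and, above the line, 4 other tetraspanins. Filled symbols passed the test, and dotted lines mark the fold limit of 1.2. Tspan5 reaches 3.01 and Cd9 1.94 in WT, while 4 members lie to the left of zero in both genotypes.

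Whether the response to IL-4 differed between genotypes was tested as an interaction over all 12 libraries. No member passed, and neither did any other gene of 14825 tested (0% called by edgeR, with 1327 genes at an unadjusted p under 0.05, and 92 genes called by DESeq2, none of them a member). The largest interaction among the members was that of Cd81, at a log2 difference, KO minus WT, of -0.28 (SE 0.11, edgeR adjusted p = 0.457). The genotype difference of Cd81 in these libraries was known when the list was chosen, so this value and its rank are a description. Cd9 was next, at -0.25 (SE 0.12, edgeR adjusted p = 0.559). Thus Cd81, called with IL-4 in WT and not in KO, was not shown to respond differently.

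The comparison of KO with WT within a state asks what the absence of miR-210 went with. Cd81 was higher in KO than in WT in both states. In M0 the WT libraries held 1663, 1932 and 1947 normalized counts and the KO libraries 2957, 2435 and 2709.8. In M2 the WT libraries held 2488, 2597 and 2420.5 and the KO libraries 3002, 3156 and 2842. The genotypes did not overlap in either state, while the KO M0 and WT M2 libraries overlapped. The difference was 1.46-fold in M0 (log2 0.55, SE 0.10) and 1.2-fold in M2 (log2 0.27, SE 0.06). With each library left out in turn it was 0.48 to 0.62 on the log2 scale in M0 and 0.23 to 0.30 in M2. The limits for a call were met in 2 of these 6 fits in M0 and in 2 of 6 in M2. The M2 difference was also not called in the fit of all 12 libraries. In M0 the marker sums that did not overlap between genotypes were those of megakaryocytes and platelets, 33.98 to 52.3 in WT against 60.3 to 88.3 in KO, of endothelial cells, 263 to 346 against 201 to 218, and of fibroblasts, 6.43 to 10.3 against 12.1 to 17.1. In M2 they were those of neutrophils, 22.4 to 40.04 in WT against 10.197 to 17.04 in KO, of megakaryocytes and platelets, 95.3 to 102 against 88.7 to 91.8, and of macrophages, 66038 to 68055 against 68078 to 72601. Their part in the difference of Cd81 was not tested.

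None of the other 9 members passed the test in either state, and for each of them the genotypes overlapped in both. Across all genes 0.461% of 14089 were called in M0, 0.22% higher in KO, and 0.98% of 13980 in M2, 0.408% higher in KO, and groups did not overlap for 14.4% and 16% of genes. Their log2 fold changes ran from -0.12 (Cd63) to 0.21 (Cd9) in M0, with SE of 0.07 to 0.12 and edgeR adjusted p-values of 0.582 to 0.928. In M2 they ran from -0.11 (Cd37) to 0.12 (Tspan4), with SE of 0.05 to 0.12 and edgeR adjusted p-values of 0.62 to 0.996. Taking 2 SE on each side, these values leave room for log2 differences from -0.33 to 0.43 in M0 and from -0.30 to 0.26 in M2. Cd151 and Tspan4, the members nearest to the deleted locus, had log2 fold changes of 0.16 (SE 0.11) and 0.07 (SE 0.11) in M0. In M2 they were 0.03 (SE 0.06) and 0.12 (SE 0.07). With Cd81 included, the median of the 10 members was 0.10 in M0 and 0.02 in M2, against 0.000496 and 0.00204 over all genes.

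**Figure D4:**
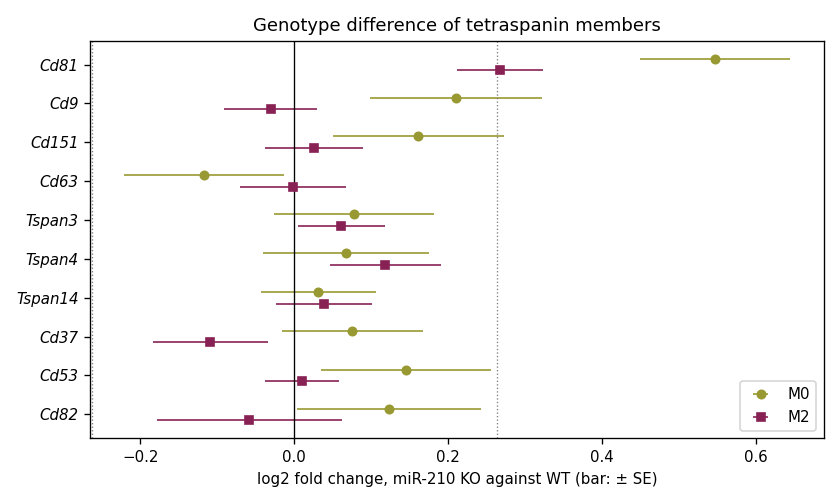
Log2 fold change of KO against WT with its SE for the 10 members in M0 (circles) and M2 (squares). The dotted lines mark the fold limit of 1.2. Cd81 lies at 0.55 in M0 and 0.27 in M2, and the other 9 members lie between -0.12 and 0.21.

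The lowest values of the members fell largely in the same libraries. Library 2 held the lowest value of 6 members in WT M0 (Cd9, Cd37, Cd53, Cd151, Tspan3, Tspan4) and of 7 in KO M0, the same 6 and Cd81. Library 3 held the lowest value of 8 members in KO M2, all but Cd82 and Tspan14. In WT M2 the lowest values were spread over the libraries, with at most 5 members in 1 of them. Over all genes with an average above 100, deviations from the group mean correlated at 0.51 between library 2 of WT M0 and of KO M0. The share of all genes lowest in each library was not taken, so this pattern may not be particular to the members. These libraries were not taken as pairs, since their numbers carry no shared label.

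The genes whose pattern over the 12 libraries was most like that of Cd81 were Strap, Slc29a1 and Mmd. Likeness was measured as the root mean square difference of centred log2 normalized counts among 9215 genes with an average over 100, and was 0.08, 0.10 and 0.10. Strap stood at 698, 980.1, 865 and 1067 normalized counts on average in WT M0, KO M0, WT M2 and KO M2, with the groups in the same order as for Cd81. All 3 were chosen for this likeness, so their values are a description.

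Of the 21 other tetraspanins in the family list, 6 passed the filter on low counts and 15 stayed at or below 12.1 normalized counts, with Tspan11, Upk1b and Prph2 at 0 in every library. With IL-4, 3 of the 6 rose in WT and 4 in KO, and none fell, against the 45.4% and 36.6% of all genes compared that were called in either direction. Tspan5 changed most of all tetraspanins. It held 106, 115 and 106 normalized counts in M0 and 900.2, 852 and 873 in M2 in WT. KO libraries held 127, 129 and 131 in M0 and 858, 863 and 939 in M2. This was a fold change of 8.05 in WT (log2 3.01, SE 0.08, edgeR adjusted p = 8.89e-12) and 6.87 in KO (log2 2.78, SE 0.09, edgeR adjusted p = 2.66e-10), so that M0 and M2 libraries were far apart in both genotypes. Tspan17 went from 188 ± 13.7 to 341 ± 8.34 in WT (SD, n = 3, log2 0.86, edgeR adjusted p = 2.59e-06) and from 173 ± 21.6 to 302 ± 56.5 in KO (log2 0.81, edgeR adjusted p = 6.25e-04). Tspan5, Tspan14 and Tspan17 belong to the TspanC8 group, the partners of ADAM10, whose remaining members Tspan10, Tspan15 and Tspan33 stayed under 5 normalized counts in every library.

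Tspan32, a tetraspanin of blood cells that lies close to Cd81, went from 409.9 ± 32.4 to 607 ± 53.3 normalized counts in WT (SD, n = 3, log2 0.57, edgeR adjusted p = 1.08e-04). In KO it went from 492 ± 63.1 to 659 ± 23.1 (log2 0.42, edgeR adjusted p = 0.0049). Tspan13 was called in KO alone, at 20.6 ± 0.689 in M0 and 33.3 ± 2.39 in M2 (log2 0.70, edgeR adjusted p = 0.0326), and that call was lost without any 1 of the 6 libraries. In WT its log2 value was 0.39 (edgeR adjusted p = 0.177), and the difference between genotypes did not pass either (edgeR adjusted p = 0.801). None of these 6 genes was called between genotypes, Tspan32 included (log2 0.26, SE 0.11 in M0).

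Proteins that tetraspanins bind were taken as 6 lists of 21 genes in all, of which 18 could be tested with IL-4. In WT, 6 were higher and 5 lower in M2, and the counts were the same in KO, against 45.4% and 36.6% called over all genes compared. The median of the 18 was -0.03 in WT and 0.00166 in KO. Between genotypes 0 of 16 were called in M0, and 2 of 18, both lower in KO, in M2, against 0.461% and 0.98% of all genes. The lists were chosen with earlier results of these libraries known, so these counts are a description.

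The 3 genes listed as immunoglobulin superfamily partners all rose with IL-4 in both genotypes. Ptgfrn, which binds both CD9 and CD81, held 8.05, 13.1 and 11.02 normalized counts in M0 and 138, 140.1 and 116 in M2 in WT. In KO it held 19.1, 20.7 and 10.8 in M0 and 95.3, 81.4 and 88.4 in M2. The rise was 12.02-fold in WT (log2 3.59, SE 0.21, edgeR adjusted p = 9.39e-09) and 5.21-fold in KO (log2 2.38, SE 0.24, edgeR adjusted p = 4.96e-06). In M2 the KO libraries lay below all WT libraries (log2 -0.57, SE 0.13, edgeR adjusted p = 0.0441), a call kept only without library 3 of KO M2 when the 6 libraries were left out in turn. It was also lost with DESeq2 and in the fit of all 12 libraries, with adjusted p-values of up to 0.204.

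Igsf3, a relative of Ptgfrn, held 0, 0 and 0 normalized counts in WT M0 and 0, 1.72 and 0.901 in KO M0. In M2 it stood at 299, 274 and 259 in WT and 194, 179.8 and 230.0 in KO. All 6 M0 libraries had at most 2 counts, so against a floor of 3 counts in each library its level was at least 92.2-fold higher in WT M2 and at least 72.7-fold higher in KO M2. In M2 it was lower in KO (log2 -0.46, SE 0.10, edgeR adjusted p = 0.0452), again a call kept only without library 3 of KO M2 and lost with DESeq2 and in the fit of all 12 libraries, with adjusted p-values of up to 0.225. The last partner, Igsf8, named here after its values were seen, was 744 ± 13.8 in WT M2 and 687 ± 13.1 in KO M2 (SD, n = 3), which did not overlap and did not pass (edgeR adjusted p = 0.572). The response of Ptgfrn to IL-4 did not differ between genotypes beyond the test's limit (log2 interaction -1.2, SE 0.34, edgeR adjusted p = 0.234).

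**Figure D5:**
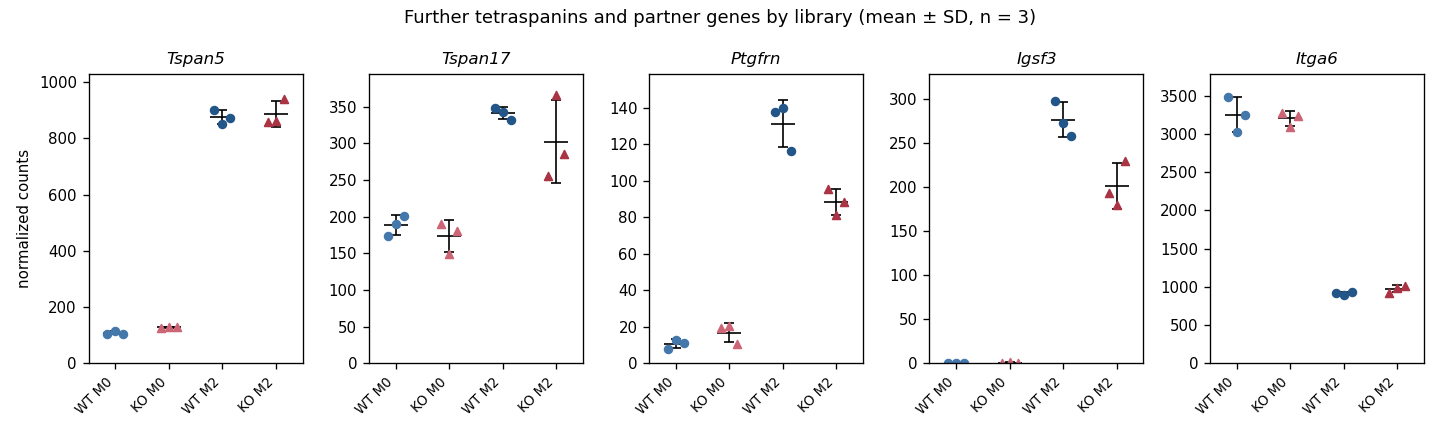
Normalized counts per library of 2 further tetraspanins and 3 partner genes (circles WT, triangles KO, line and bar mean ± SD, n = 3). Tspan5, Tspan17, Ptgfrn and Igsf3 are higher in M2, Itga6 is lower, and the KO M2 libraries of Ptgfrn and Igsf3 lie below those of WT M2.

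Of the integrin subunits, Itga6, which pairs with CD151 in laminin receptors, fell from 3252 ± 226 normalized counts in WT M0 to 918 ± 15.4 in WT M2 (SD, n = 3, log2 -1.82, edgeR adjusted p = 1.99e-10). In KO it fell from 3204 ± 96.1 to 974 ± 45.7 (log2 -1.72, edgeR adjusted p = 3.21e-09), so Cd151 and Itga6 moved in opposite directions in both genotypes. Itga4 and Itgb1 were not called and Itga3 was too low to test. In the ADAM10 list, Adam10 itself stood at 1595 ± 54.7 in WT M0 and 1611 ± 59.2 in WT M2 (edgeR adjusted p = 0.831), while the 3 TspanC8 genes above rose. Its substrate Hbegf, a growth factor precursor that also binds CD9, rose 51.1-fold in WT (log2 5.67, SE 0.17, edgeR adjusted p = 1.56e-11) and 26.5-fold in KO (log2 4.73, SE 0.16, edgeR adjusted p = 3.43e-10). The difference between these responses did not pass (log2 interaction -0.94, SE 0.32, edgeR adjusted p = 0.327), though it was called without the filter on low counts (edgeR adjusted p = 0.0413). Nor did Hbegf pass between genotypes in M2 (log2 -0.39, SE 0.11, edgeR adjusted p = 0.116), where it was called without that filter and with the replicate block. Notch2, another substrate, fell with a log2 change of -0.79 in WT and -0.53 in KO (edgeR adjusted p = 3.27e-07 and 0.0011), and Notch1 also fell in both.

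None of the 5 genes listed for sorting or releasing the exosomes on which CD63 is found was called higher in either genotype. Rab27a, which brings multivesicular endosomes to the plasma membrane, fell from 45.3 ± 10.9 to 13.6 ± 6.00 normalized counts in WT (SD, n = 3, log2 -1.71, edgeR adjusted p = 4.09e-04) and by a log2 change of -1.89 in KO (edgeR adjusted p = 4.22e-05). Sdcbp, which encodes the CD63-binding adaptor syntenin, fell as well (log2 -0.47 in WT and -0.39 in KO, edgeR adjusted p = 1.89e-04 and 0.002). The other 3 genes of this list were not called. In the lysosome and trafficking list, Pi4k2a rose (log2 0.75 in WT and 0.76 in KO, edgeR adjusted p = 3.00e-07 and 4.06e-06). Timp1, a secreted inhibitor that binds CD63, was low, at 2.30, 1.87 and 1.84 normalized counts in M0 and 16.00, 26.7 and 31.4 in M2 in WT. It was called higher in M2 in both genotypes (edgeR adjusted p = 1.63e-05 in WT and 0.0023 in KO), with log2 fold changes of 3.56 and 1.76. Without library 3 of WT M2 or library 1 of KO M2 its average fell below the limit of 10 normalized counts, so it was no longer counted as called, while the log2 value with a library left out stayed at 3.37 to 3.79 in WT and 1.51 to 1.997 in KO (edgeR adjusted p at most 3.53e-04 and 0.0164).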

How the data were processed

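Per the labels and the study's methods, total RNA of 12 macrophage libraries was depleted of ribosomal RNA and sequenced as stranded pairs, and the authors trimmed reads with Trimmomatic, removed duplicates with Picard, aligned to GRCm39 with STAR and counted with stranded featureCounts. The deposited tables hold these raw counts and, beside them, a signal of counts divided by DESeq2 size factors. Columns name group and library number only. One listed partner and marker gene is not reported here.

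Counts were tested with edgeR 4.0.16 quasi-likelihood fits (R 4.3.3, TMM, filterByExpr) on the 6 libraries of a comparison, or all 12 for the interaction, with Benjamini-Hochberg adjustment over all genes tested. DESeq2 1.42.0 was an alternative. M2 against M0 calls were limited to protein-coding genes with an average normalized count over 10. Of 56941 identifiers 56323 matched the annotation (GENCODE vM39). The script was tested on simulated data. Batch labels equal groups. Members and lists were chosen with earlier results of these data known. Named were all members, other tetraspanins called at least 1 time, at most 2 called partners per list by fold change, Mir210, and the 3 genes most like Cd81 (pseudocount 1). SE cover the spread between libraries, and floors of 3 counts cover counting error only.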

Additional observations from a re-analysis of the deposited data

How the results depend on the processing

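The 1 member counted as called between genotypes in each state was Cd81, whose difference was known when the list was chosen, so its counts are a description. With all libraries the count was 1, and leaving out a library gave 0 to 1 in M0 and 0 to 1 in M2, also over the family of 31 genes. A fit of all 12 libraries called 0 members and 0 of the family in M2 and left the count at 1 in M0. With IL-4, 9 members and 12 of the family were called in WT, 8 to 10 and 11 to 13 under the alternatives that keep all libraries, where DESeq2 gave 8 and no fold limit 10. With a library left out, 8 to 9 members and 11 to 12 of the family were called in WT. In KO, 8 members were called under every alternative that keeps all libraries, and 7 to 9 with a library left out, with 12 of the family called, or 10 to 12. The interaction called 0 members under every alternative run. Of 240 log2 fold changes of members under alternatives that keep all libraries, not counting the one without a fold limit, in which Tspan3 in WT was called as well, 237 kept direction and call, 2 lost their call (Cd81 between genotypes in M2, and Cd82 with DESeq2 in WT, adjusted p = 0.0782) and 1 changed sign, the interaction of Tspan14 without the filter on low counts, at -0.0101. Of 360 with a library left out, 14 lost and 2 gained a call, and 22 changed sign, all of values that were not called. These lay in the ranges, over the libraries left out, of -0.00773 to 0.177 (Tspan4) and -0.00524 to 0.17 (Tspan3) between genotypes in M0, of -0.0517 to 0.0416 (Cd63), -0.0415 to 0.0766 (Cd151), -0.156 to 0.0385 (Cd82), -0.00351 to 0.0841 (Tspan14) and -0.0163 to 0.039 (Cd53) in M2, and of -0.0655 to 0.111 (Tspan4), -0.116 to 0.0615 (Tspan3) and -0.041 to 0.0452 (Tspan14) for the interaction. The replicate block left the count of members called at 1, 1, 9, 8 and 0, and moved counts over all genes in the genotype comparisons, from 65 to 284 in M0 and from 137 to 289 in M2. Those counts were also 218 in M0 with DESeq2, 532 in M0 and 360 in M2 without the filter on low counts, 248 in M0 and 60 in M2 in the fit of all 12 libraries, and 20 to 302 in M0 and 53 to 215 in M2 with a library left out. The interaction called 0 genes with all libraries, 92 with DESeq2, 341 without the filter and 0 to 77 with a library left out. Library numbers were not tied to animals or batches, and the correlations of same-numbered libraries ran from -0.49 to 0.51. The deposited normalized counts left the order of all 10 members as it was in every group. Lengths of canonical transcripts, chosen after seeing the data, kept 6, 7, 4 and 8 members in place in WT M0, KO M0, WT M2 and KO M2. All members passed the filter on low counts, while 15 tetraspanins and 3 partners were too low to test in any comparison that used it. Between genotypes in M0 only 16 of the 21 partners were tested. The causes of lost calls were not tested.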
